A study of Mus musculus with 16 samples.

Results

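The nuclei described here were chosen by transcripts of 5 genes known as markers of blood vessel endothelium: Flt1, Cldn5, Pecam1, Mecom and Emcn. A barcode was taken as a nucleus at 500 or more unique molecular identifiers (UMIs), 300 or more genes and at most 5% mitochondrial UMIs. It was selected when the 5 genes together had 3 or more UMIs, with at most 1 UMI summed over the neuronal genes Slc17a7, Gad1 and Gad2, at most 1 over the myelin genes Mog and Mag, at most 1 of the astrocyte gene Gja1 and at most 1 over the mural cell genes Pdgfrb and Rgs5. The rule found 1622 of 147873 nuclei, and 22 to 172 in a library. No selected barcode occurred in more than 1 library.

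The study measured nuclear RNA of the hippocampus from female mice aged 9 months, in 16 libraries of 4 groups with 4 libraries each. The mice either kept both copies of Ch25h (Ch25h+/+) or had neither (Ch25h-/-), and were labelled Tau- or Tau+ within each genotype. Ch25h encodes cholesterol 25-hydroxylase, an interferon-induced enzyme that makes 25-hydroxycholesterol, and the series title places it between innate immune activation and tau pathology. The labels name neither the strain, the tau line or its promoter, nor how Ch25h was deleted, and they do not say whether a library is 1 animal. P-values therefore measure the spread between libraries, which may be technical. Replicates were numbered in the order of deposition, so the numbers pair no libraries.

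Endothelial cells line all blood vessels. In the brain they form the blood-brain barrier through tight junctions, few transport vesicles and a set of nutrient transporters and efflux pumps, which Wnt signalling maintains. Along a vessel the cells change from arterial through capillary to venous states, and the vessels of the choroid plexus are fenestrated instead. Brain endothelium also carries the type I interferon receptor and responds to interferon in the blood.

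The 5 genes of the rule have known roles. Flt1 (chromosome 5, 147561604 to 147726011, minus strand, GRCm38) encodes VEGF receptor 1, and Cldn5 (chromosome 16, 18776847 to 18778262, plus strand) the main claudin of the barrier's tight junctions. Pecam1 (chromosome 11, 106654217 to 106750628, minus strand) encodes an adhesion molecule at the contacts between endothelial cells, and Emcn (chromosome 3, 137341067 to 137432185, plus strand) endomucin, a surface sialomucin. Mecom (chromosome 3, 29951296 to 30548008, minus strand) encodes a zinc finger transcription factor that other cell types use too. RefSeq promoters (GRCm38.p6) of 4 of the 5 genes are shown because these genes decided which nuclei were chosen. They are given 5′ to 3′ on the gene's strand up to the last base before an annotated start, at chr5:147726012-147726261 for Flt1, chr16:18776597-18776846 for Cldn5, chr3:30509823-30510009 for Mecom and chr3:137340828-137341066 for Emcn. The Mecom window belongs to a start inside the gene's outer coordinates. Capitals mark AGGAAG or, on the other strand, CTTCCT, a core that ETS factors such as the endothelial Erg bind.
Flt1: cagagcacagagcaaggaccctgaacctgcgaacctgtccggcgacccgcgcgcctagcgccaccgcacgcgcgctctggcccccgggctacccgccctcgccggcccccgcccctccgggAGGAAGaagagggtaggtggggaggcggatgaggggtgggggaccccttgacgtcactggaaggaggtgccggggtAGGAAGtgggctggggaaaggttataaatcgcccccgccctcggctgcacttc
Cldn5: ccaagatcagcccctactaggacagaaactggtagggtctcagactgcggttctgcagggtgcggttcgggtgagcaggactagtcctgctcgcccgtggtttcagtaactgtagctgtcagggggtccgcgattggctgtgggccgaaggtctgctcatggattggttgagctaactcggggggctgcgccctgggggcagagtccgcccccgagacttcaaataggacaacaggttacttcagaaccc
Mecom: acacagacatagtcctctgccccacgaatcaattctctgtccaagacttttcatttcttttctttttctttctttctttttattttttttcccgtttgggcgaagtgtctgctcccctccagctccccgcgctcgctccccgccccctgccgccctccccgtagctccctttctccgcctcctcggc
Emcn: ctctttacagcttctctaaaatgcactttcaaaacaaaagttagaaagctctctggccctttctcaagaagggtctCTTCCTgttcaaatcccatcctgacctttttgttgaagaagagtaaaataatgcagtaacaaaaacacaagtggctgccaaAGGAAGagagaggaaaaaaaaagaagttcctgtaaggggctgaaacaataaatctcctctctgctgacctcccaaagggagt
The motif occurred 2 times for Flt1 and 2 times for Emcn, and these letters are not in the windows shown for Cldn5 and Mecom. Of 32851 promoters, 29.5% hold it on either strand in the last 250 bases before the start. The share is 22.4% over the 187 bases available for Mecom and 28.3% over the 239 available for Emcn.

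The label "endothelial" held for only a part of the selected nuclei. Mecom alone supplied all marker UMIs of 963 of the 1622 nuclei, and 611 nuclei reached 3 UMIs without counting Mecom. The genes most enriched over all other nuclei were a mixture: the endothelial genes Adgrl4 (374-fold), Cldn5 (363-fold), Flt1 (250-fold) and Ly6c1 (219-fold) stood beside genes of choroid plexus epithelium such as Otx2, Tmem72 and Slc4a5. Choroid plexus epithelium is the secretory layer that makes cerebrospinal fluid, and Ttr, its thyroid hormone carrier, is its most abundant transcript. These values come from the same counts that chose the nuclei and are a description without a test.

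Leiden clustering of the selected nuclei, without the rule's genes, gave 10 clusters. Clusters 1 and 2 held 887 nuclei (54.7%) with a median of 4864 UMIs. All 4 choroid plexus markers (Ttr, Kl, Folr1, Otx2) were at least 2-fold above all other nuclei in both, but of 23 endothelial markers only 6 in cluster 1 and 7 in cluster 2. The 23 include the rule's 5 genes, which the selection itself raised, and counts out of 23 are not split by this. Mecom gave 99.7% of their marker UMIs in cluster 1 and 97.8% in cluster 2. These clusters are named by number here, since 1 endothelial marker stood among their 10 leading genes, Mecom, which the rule itself used. Sult1c2, Cldn2 and Tmem72 were other leading genes of both.

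Clusters 3 and 4 held 288 and 140 nuclei, in which all 23 endothelial markers were at least 2-fold above all other nuclei. Among these are all 18 markers that the rule did not use. They are called endothelial-like. The 18 endothelial markers that the rule did not use summed in cluster 3 to 19277 CPM (UMI counts scaled to the summed UMIs of the nuclei named, as counts per library are usually scaled) and to 13938 in cluster 4, against 754 in cluster 2, 760 in cluster 1 and 81.8 in all other nuclei. Choroid plexus markers summed to 327 in cluster 3 and 487 in cluster 4, against 10806 in cluster 1 and 16038 in cluster 2. Cluster 4 also had 7 of 9 mural cell markers and 6 of 6 fibroblast markers above 2-fold, and the mural list summed to 1121 CPM there and to 18.9 in cluster 3. The smooth muscle gene Acta2 stood at 495 CPM in cluster 4 and at 0 in cluster 3, while Abcc9, a pericyte marker, was at 0 in both.

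**Figure D1:**
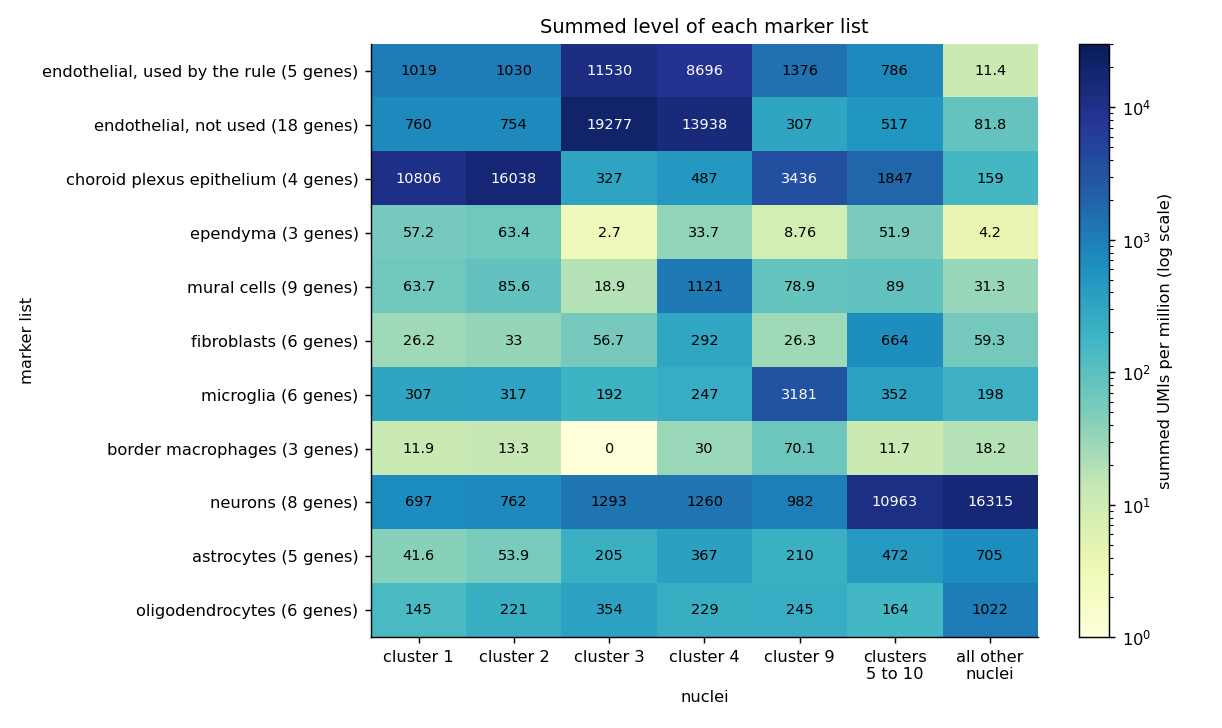
Summed CPM of each marker list (rows) in clusters 1 to 4, in cluster 9, in clusters 5 to 10 together (which include cluster 9) and in all other nuclei (columns), with colour on a log scale. The endothelial markers not used by the rule are highest in clusters 3 and 4, and choroid plexus markers are highest in clusters 1 and 2.

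The endothelial-like nuclei were small libraries of RNA. Their median was 1157 UMIs in cluster 3, 0.245 of the median of the nuclei in their own libraries, and 1787 in cluster 4 (0.365). Scrublet scored nuclei against simulated doublets. In each library the highest scores were marked, in a number set beforehand at 0.8% for every 1000 nuclei. Over all libraries 136641 of 147873 nuclei stayed unmarked. Marked were 169 of the 428 endothelial-like nuclei (39.5%) but 15 of the 887 nuclei of clusters 1 and 2 (1.69%). These shares compare scores and are no measured doublet rates. Doublets were kept in the main analysis and left out in an alternative.

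The other 307 nuclei fell into clusters 5 to 10, which stay unnamed. Cluster 5 (105 nuclei, median 8911 UMIs, 65 marked as doublets) combined 22 of 23 endothelial, 4 of 4 choroid plexus and 3 of 3 ependymal markers. Cluster 6 (56 nuclei) carried 17 of 23 endothelial, 5 of 6 fibroblast and 3 of 4 choroid plexus markers, and cluster 8 (41 nuclei) 5 of 23 endothelial and 4 of 6 fibroblast markers. Cluster 10 (29 nuclei) carried 5 of 23 endothelial, 3 of 3 ependymal and 4 of 5 astrocyte markers. Cluster 7 (43 nuclei) carried 3 of 23 endothelial and 1 of 4 choroid plexus markers, and 0 of 8 neuronal markers were 2-fold higher. The rule itself held Slc17a7, Gad1 and Gad2 low, which are among these 8. The neuronal list summed to 16315 CPM in all other nuclei, so this count cannot show whether cluster 7 is neuronal. Leading genes of cluster 7 included Emcn, with a UMI in 97.7% of its nuclei. Another was Slc17a6, which the rule did not limit, with a UMI in 51.2% (10.4-fold above all other nuclei). Clusters 5, 6, 8, 9 and 10 had 0 of 8 as well, which likewise cannot show that they lack neuronal RNA. In clusters 5 to 10 together the neuronal list summed to 10963 CPM, against 720 in clusters 1 and 2. That sum is not split by cluster here. Cluster 9 (33 nuclei) had 6 of 6 microglia markers, summing to 3181 CPM against 198 in all other nuclei, together with 4 of 4 choroid plexus markers at 3436.

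Many nuclei lay next to the selection's threshold on both sides, while the endothelial-like nuclei lay mostly well above it. Their median was 13 marker UMIs in cluster 3 and 14 in cluster 4, against 4 in cluster 1 and 4 in cluster 2. Outside the rule, 841 nuclei met every other condition with 2 marker UMIs, and 443 selected nuclei had exactly 3. The 18 endothelial markers outside the rule summed to 393 CPM just outside and 665 just inside, and choroid plexus markers to 5132 and 7647.

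The makeup of the selection differed between libraries. Clusters 1 and 2 gave 46, 80, 40 and 0 nuclei in the 4 Ch25h+/+ Tau- libraries and 101, 103, 94 and 72 in Ch25h+/+ Tau+. They gave 96, 8, 37 and 71 in Ch25h-/- Tau- and 77, 38, 24 and 0 in Ch25h-/- Tau+. Endothelial-like nuclei were found in every library. Their numbers were 20, 28, 45 and 25 in Ch25h+/+ Tau-, 42, 42, 35 and 17 in Ch25h+/+ Tau+, 33, 9, 17 and 31 in Ch25h-/- Tau- and 38, 11, 21 and 14 in Ch25h-/- Tau+. Libraries thus ranged from 9 to 45 endothelial-like nuclei, and all 4 groups overlapped.

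**Figure D2:**
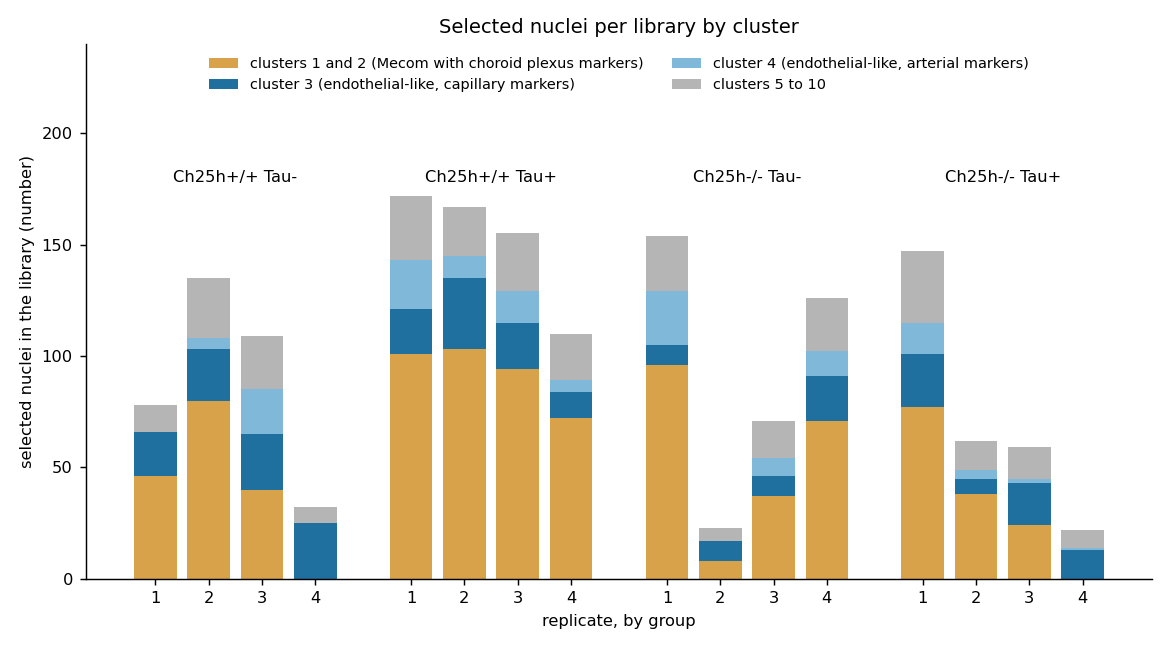
Number of selected nuclei (bars from 0) in each of the 16 libraries, by group and replicate, stacked by cluster. Ch25h+/+ Tau- replicate 4 and Ch25h-/- Tau+ replicate 4 hold no nucleus of clusters 1 and 2.

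The 3 libraries with the fewest selected nuclei were Ch25h+/+ Tau- replicate 4 (32), Ch25h-/- Tau- replicate 2 (23) and Ch25h-/- Tau+ replicate 4 (22). In their summed counts they also stood apart from the other libraries of their groups. On the first principal component, taken after each group's mean was subtracted, they lay at -93.9, -36.1 and -98.4. It held 46.5% of the variance left within groups. Comparisons over all selected nuclei that these libraries enter are given with and without them where a call changes.

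Within the endothelial-like nuclei, genes of barrier function were described by their levels pooled over libraries. Of all 12958 genes with at least 3 UMIs there, 33.9% were at least 2-fold above all other nuclei, and the counts of list members are to be read against that share. Tight and adherens junction genes summed to 7678 CPM against 1248 in all other nuclei, and 16 of 17 were at least 2-fold higher. Cldn5 is among them but was used by the rule. Tjp1, which anchors claudins to actin, stood at 1879 CPM against 397 in all other nuclei, and Cdh5, the endothelial cadherin, at 242 against 1.18. Magi1, a junction scaffold, was the other way among the clusters, at 476 CPM in clusters 3 and 4 and 766 in clusters 1 and 2.

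All 22 transporter genes were at least 2-fold above all other nuclei. The organic anion transporter Slco1a4 was at 3459 CPM and had a UMI in 85.0% of the endothelial-like nuclei. The efflux pump genes Abcb1a and Abcg2 were at 904 and 1105 CPM, against 1.59 and 15.6 in all other nuclei. Slc2a1, the glucose carrier of the barrier, was at 860 against 7.89.

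Genes of transport by vesicles and of signalling followed. Igf1r stood at 2557 CPM, Tfrc, the transferrin receptor, at 491 and Cav1, the caveolae protein, at 306 against 2.36 in all other nuclei. Of the VEGF and angiopoietin genes 13 of 19, of the Wnt and barrier genes 19 of 20, and of the TGF-beta and BMP genes 15 of 17 were at least 2-fold higher. Lef1, a nuclear effector of Wnt signalling, was at 1446 CPM against 9.47 in all other nuclei and 458 in clusters 1 and 2. Klf2, a transcription factor induced by blood flow, was at 424 against 0.877.

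Genes of the pathway in the study's title also had UMIs there. Among interferon-stimulated genes 50 of 53 were at least 2-fold above all other nuclei, with a summed level of 3291 CPM against 231 in all other nuclei, 681 in clusters 1 and 2 and 3085 in cluster 9. Sp100, a nuclear body protein, was at 355 CPM against 2.45 in all other nuclei. The receptor genes Ifnar1 and Ifnar2 were at 223 and 270, against 19.8 and 22.4 in all other nuclei. MHC class I genes were at least 2-fold higher in 15 of 15 cases, summing to 2478 CPM, with B2m, the light chain, at 463 against 7.17. In barcodes under 100 UMIs, which hold mostly free RNA, the interferon-stimulated list summed to 312 CPM and the MHC class I list to 218. Of the cGAS-STING and interferon signalling genes 10 of 20 were 2-fold higher, with a sum of 1293 CPM against 412 in all other nuclei. Of the cholesterol and oxysterol genes 9 of 34 were 2-fold higher. That share lies between the 13.6% of all genes in the files and the 33.9% of genes with at least 3 UMIs. They summed to 1711 CPM, below the 4036 in barcodes under 100 UMIs, so this sum is not read as expression by the nuclei. Scarb1, the HDL receptor, stood at 140 CPM against 30.4. These levels are pooled over libraries and groups.

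The endothelial-like clusters differed in vessel-segment markers. Arterial markers summed to 9063 CPM in cluster 4, of which Mgp gave 6434, and to 343 in cluster 3. Capillary markers summed to 1061 in cluster 4 and 4910 in cluster 3. Venous markers summed to 2861 in cluster 4 and 1679 in cluster 3, and fenestrated markers to 1252 and 148. The arterial gene Hey1 was near equal, at 33.7 and 32.4 CPM. Mgp, a matrix protein of arteries, had 1716 UMIs in cluster 4 and 22 in cluster 3, which is 108-fold higher in CPM. Bmx, a kinase of arterial endothelium, had 170 and 37 UMIs (6.38-fold), and Gkn3 126 and 4 UMIs (43.8-fold). Cluster 3 was higher for Tfrc, with 298 UMIs against 15 in cluster 4 (14.3-fold), for the amino acid transporter Slc7a5 (8.26-fold) and for Mfsd2a, the lipid transporter that restrains transcytosis, with 39 UMIs against 2. Of the capillary genes Rgcc went the other way, 2.49-fold higher in cluster 4. Venous markers went both ways: Vcam1 (4.17-fold) and Vwf (2.23-fold) were higher in cluster 4, and Ephb4 (94.5 against 22.5 CPM), Il1r1 (2.25-fold) and Nr2f2 (1.51-fold) in cluster 3. Plvap, the diaphragm protein of fenestrae, had 31 UMIs in cluster 4 and 2 in cluster 3, and the other fenestrated markers were higher in cluster 4 too. So were the mural list (1121 against 18.9 CPM) and the fibroblast list (292 against 56.7), and their part in the contrast was not tested. The clusters were made from the same counts, by 2000 variable genes without the rule's genes, so the contrast is a description.

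**Figure D3:**
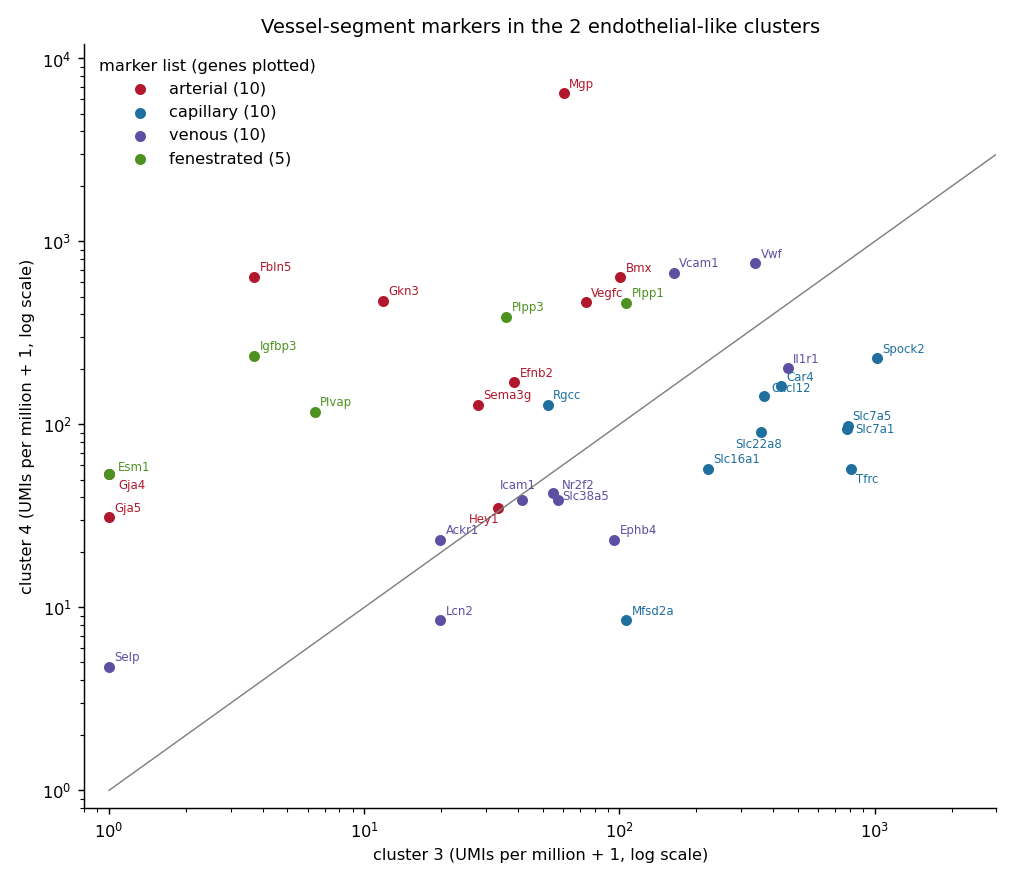
Level of each vessel-segment marker in cluster 3 (x axis) and cluster 4 (y axis), both as CPM + 1 on log scales; each point is a gene reported by name, coloured by its list, and the line marks equal levels. Of the arterial genes, Mgp, Fbln5, Gkn3 and Bmx lie above the line, and of the capillary genes, Tfrc, Slc7a5, Slc7a1 and Mfsd2a lie below it.

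The share of selected nuclei was compared between groups over libraries. It was highest in Ch25h+/+ Tau+, but no difference passed after adjustment. In Ch25h+/+ Tau- it was 0.348 to 1.16% with a median of 1.02% (mean 0.888% ± 0.377, SD, n = 4). In Ch25h+/+ Tau+ it was 1.25 to 1.84% with a median of 1.73% (mean 1.64% ± 0.264, SD, n = 4). Every Ch25h+/+ Tau+ library lay above every Ch25h+/+ Tau- library. In Ch25h-/- Tau- it was 0.223 to 1.84% (mean 1.06% ± 0.687, SD, n = 4), and in Ch25h-/- Tau+ 0.262 to 1.45% (mean 0.784% ± 0.491, SD, n = 4). Both groups without Ch25h overlapped each other and both groups with it.

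The tau effect (Tau+ minus Tau-) on the share in Ch25h+/+ was 0.754 percentage points in an exact two-sided permutation test (p = 0.0286, the smallest 70 arrangements can give, adjusted over 6 effects p = 0.171). In Ch25h-/- it was -0.275 points (exact permutation p = 0.543, adjusted p = 0.651). Loss of Ch25h in Tau+ gave -0.858 points (exact permutation p = 0.0571, adjusted p = 0.171) and in Tau- 0.171 points (p = 0.686 by the same exact test). Over both genotypes the tau effect was 0.240 points and over both tau states the loss effect -0.343 points, with exact permutation p-values of 0.396 and 0.226.

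Most of that difference lay in the nuclei with choroid plexus markers. Clusters 1 and 2 made up a mean 0.410% ± 0.294 of nuclei in Ch25h+/+ Tau- and 1.01% ± 0.133 in Ch25h+/+ Tau+ (SD, n = 4). Endothelial-like nuclei made up 0.304% ± 0.112 and 0.368% ± 0.116 in these groups, 0.253% ± 0.135 in Ch25h-/- Tau- and 0.228% ± 0.106 in Ch25h-/- Tau+ (SD, n = 4). With Mecom left out of the marker sum, the tau effect in Ch25h+/+ was 0.104 points (exact permutation p = 0.4). After thinning each nucleus to 1000 UMIs, leaving out shallower nuclei, it was 0.225 points (exact permutation p = 0.0857). Thinning lowered the mean share in both groups, from 0.888% to 0.246% in Ch25h+/+ Tau- and from 1.64% to 0.471% in Ch25h+/+ Tau+.

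**Figure D4:**
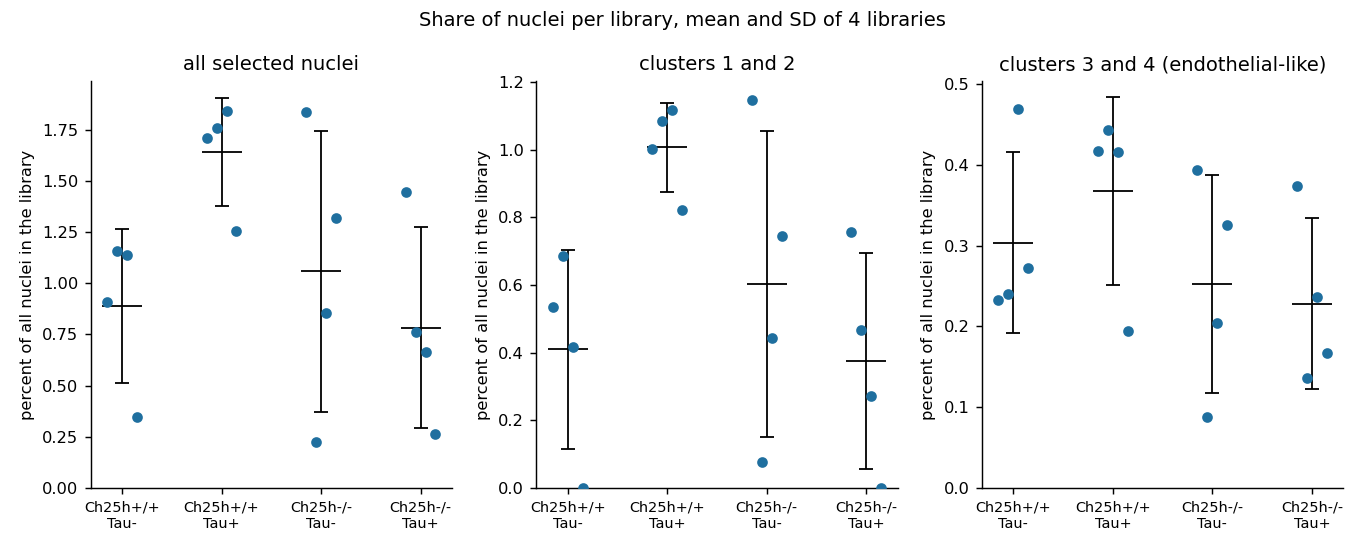
Percent of all nuclei of a library (y axis, from 0) that were selected, that lay in clusters 1 and 2, and that lay in clusters 3 and 4, by group. Points are libraries, and lines with bars are the mean and SD of 4 libraries. In the Ch25h+/+ Tau+ group the selected share is 1.25 to 1.84%, and the endothelial-like share overlaps in all 4 groups.

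Gene levels were compared between groups by summing the UMIs of the selected nuclei in each library (59382 to 831561 UMIs), and edgeR's quasi-likelihood test was run on 12082 genes with Benjamini-Hochberg adjustment. In these bulk sums fewer cells of a type and less RNA per cell cannot be told apart. Clusters 1 and 2 supplied 4513480 of the 7038862 UMIs summed, and clusters 3 and 4 supplied 637123. In a library clusters 3 and 4 gave 5.32 to 31.1% of the UMIs (median 8.67%), so these comparisons are not of endothelial-like nuclei alone. For the tau effect over both Ch25h genotypes 3 genes passed, all higher in Tau+: Dock2, Cyth4 and Dock8 (0.0248% of genes tested). These are genes of blood-derived and microglial cells, encoding activators of Rac and Cdc42 (Dock2, Dock8) and of ARF GTPases (Cyth4). No gene passed for the tau effect in Ch25h+/+ or in Ch25h-/- alone, for Ch25h loss in Tau-, in Tau+ or over both, or for their interaction (0% each). Without the 3 thin libraries 1 gene passed for tau in Ch25h+/+ (Dgki, lower, edgeR adjusted p = 0.0485), 1 for loss in Tau+ (Cfap43, lower, adjusted p = 0.0382) and 2 for loss over both (Cfap43, lower, and Arl3, higher, both at an adjusted p of 0.0030). At an unadjusted p under 0.05, these comparisons had 896, 314, 333, 372, 263 and 448 genes, and DESeq2 called 27 genes for tau in Ch25h+/+, all lower, 1 for loss over both tau states and 0 in the other 4. For tau over both genotypes 684 genes had an unadjusted p under 0.05, and DESeq2 called 10 higher and 12 lower. DESeq2 chooses its own filter for each comparison and gave an adjusted p to 1138 genes for tau in Ch25h+/+, to 13930 for tau over both and to 22755 in the other comparisons. Beside the 27 lower genes, the 8 neuronal markers summed to 3765 to 13109 CPM in Ch25h+/+ Tau- and 931 to 3378 in Ch25h+/+ Tau+, where every library was lower, and their part in the calls was not tested.

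Dock2 (chromosome 11, 34226815 to 34783892) had 0 UMIs in all 4 Ch25h+/+ Tau- libraries and 29.1, 22.8, 2.67 and 15.02 CPM in Ch25h+/+ Tau+. In Ch25h-/- it was at 5.34, 0, 6.47 and 8.17 in Tau- and at 64.5, 62.0, 23.4 and 84.2 in Tau+. All Ch25h-/- Tau+ libraries lay above all Tau- libraries, while 1 Ch25h+/+ Tau+ library lay within the Ch25h-/- Tau- range. The fitted log2 fold change was 4.52 ± 0.68 (SE, edgeR adjusted p = 0.0335). Because 1 group is all at 0, this size depends on the prior count of the fit and is no bound.

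Cyth4 (chromosome 15, 78597047 to 78622019) was at 0 in all 4 Ch25h+/+ Tau- libraries and at 10.2, 13.2, 4.01 and 11.3 CPM in Ch25h+/+ Tau+. Its levels were 4.01, 0, 3.24 and 6.13 in Ch25h-/- Tau- and 33.0, 18.6, 15.6 and 50.5 in Ch25h-/- Tau+. The log2 fold change was 3.81 ± 0.63 (SE, edgeR adjusted p = 0.0356). Dock8 (chromosome 19, 24999534 to 25202432) rose by 2.995 ± 0.52 on the log2 scale (SE, edgeR adjusted p = 0.0356). Its highest value, 135 CPM, was in the thin library Ch25h-/- Tau+ replicate 4, and 3 of 4 Ch25h+/+ Tau- libraries were at 0. The highest Dock2 and Cyth4 values were in Ch25h-/- Tau+ replicate 4 too. The selected nuclei of that library held 59382 UMIs, so these highest values rest on few UMIs.

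The UMIs of these genes came mostly from 33 nuclei. Cluster 9, with microglia markers, held 109 of 135 Dock2 UMIs (80.7%), 50 of 70 Cyth4 UMIs (71.4%) and 70 of 109 Dock8 UMIs (64.2%). Clusters 3 and 4 held 4 Dock2 UMIs. Cluster 9 had 0 nuclei in Ch25h+/+ Tau-, 5, 3, 1 and 2 in Ch25h+/+ Tau+, 2, 0, 1 and 3 in Ch25h-/- Tau-, and 9, 4, 2 and 1 in Ch25h-/- Tau+, so that 27 of 33 were in Tau+ libraries. With replicates 1 and 2 set against 3 and 4 as a term, Dock2 alone passed (edgeR adjusted p = 0.0162, and 0.0537 for Cyth4 and Dock8). With the cluster 9 nuclei left out no gene passed for this comparison. Dock2, Cyth4 and Dock8 then had 26, 20 and 39 UMIs and fell under the filter on low counts, so they were not tested. No gene passed without the doublets or without the 3 thin libraries either, where Dock2 kept a fitted log2 fold change of 4.72 and 4.57 (edgeR adjusted p = 0.136 and 0.0656). Leaving out 1 library at a time also ended all 3 calls for Ch25h+/+ Tau+ replicates 1 and 2, Ch25h+/+ Tau- replicates 2 and 3, Ch25h-/- Tau+ replicate 1 and Ch25h-/- Tau- replicates 1, 2 and 3 (0 genes each). Over the fits without 1 library, the log2 fold changes stayed at 4.32 to 4.67 for Dock2, 3.66 to 3.96 for Cyth4 and 2.82 to 3.95 for Dock8.

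**Figure D5:**
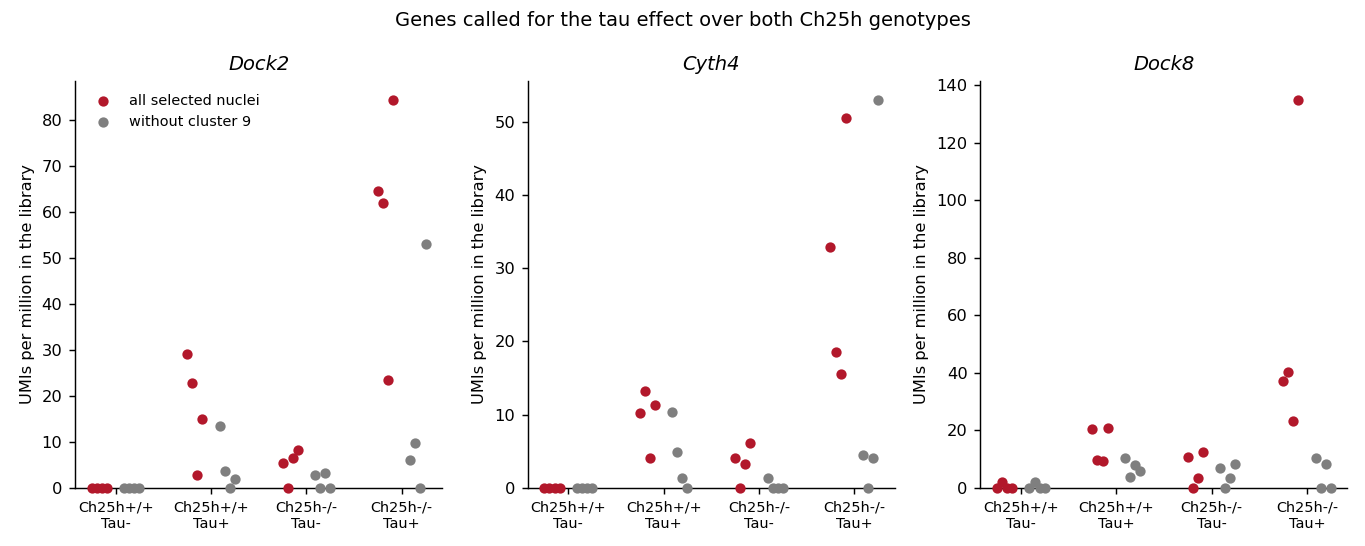
CPM of Dock2, Cyth4 and Dock8 (y axes, from 0) in each of the 4 libraries of each group, for all selected nuclei and without cluster 9. Without cluster 9, levels in Tau+ libraries are lower in nearly all cases, and 1 Ch25h-/- Tau+ library stays high for Dock2 and Cyth4. The levels without cluster 9 rest on few UMIs.

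Among genes that did not pass for tau over both genotypes, the smallest unadjusted p-values were for Apbb1ip, an adaptor of integrin activation in leukocytes (3.099 ± 0.56 on the log2 scale, edgeR adjusted p = 0.0509), and for lower Kcnab1, Sgcz, Lrrc4c and Cdh11 (log2 fold changes of -1.26, -2.11, -1.66 and -1.01). Gm43049, a transcript of unknown function, had 0 UMIs in all 8 Tau- libraries and 44 and 14 UMIs in the Tau+ groups with and without Ch25h (edgeR adjusted p = 0.0779). It had none in the endothelial-like nuclei.

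The pathway lists gave no call for any comparison of all selected nuclei. For tau over both genotypes, 31 of the 55 interferon-stimulated genes were tested, and 3 had an unadjusted p under 0.05, with a median log2 fold change of 0.23 against 0.02 over all genes tested. Over all genes tested 5.66% had an unadjusted p under 0.05. For MHC class I it was 3 of 11 tested with a median of 0.13, and for STING and interferon signalling 1 of 14 with a median of 0.22. The microglia markers stood higher, with a median of 1.20 over 5 tested, of which 3 had an unadjusted p under 0.05, and neuronal markers lower, with -0.86 over 6. Barrier junction genes (17 tested, median 0.06) and transporters (20 tested, median -0.01) were near the median of all genes. All of these medians are of sums over all selected nuclei, to which clusters 3 and 4 gave a median of 8.67% of a library's UMIs.

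Single genes of the study's pathway were at low counts. Ch25h had 3 UMIs in Ch25h+/+ Tau-, 6 in Ch25h+/+ Tau+ and 0 in all 8 Ch25h-/- libraries, as the genotype labels have it. Tmem173, which encodes STING, had 10 UMIs in all selected nuclei and Cgas 13, too few to be tested. Apoe, the main lipid carrier of the brain, had a mean of 238 ± 56.0 CPM in Ch25h+/+ Tau- and 430 ± 120 in Ch25h+/+ Tau+ (SD, n = 4), a log2 difference of 0.82 with an edgeR adjusted p of 0.54. It was at 411 ± 155 in Ch25h-/- Tau- and 417 ± 142 in Ch25h-/- Tau+, and overlapped between these groups. In barcodes under 100 UMIs, which hold mostly free RNA, Apoe stood at 2552 CPM, above every group, so these levels are not read as expression by the nuclei. Prnp, Mapt and Insr did not pass either.

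The endothelial-like nuclei were then tested alone (11478 to 71463 UMIs in a library, 1747 genes tested). All 16 libraries were kept, although 5 held under 20 such nuclei (9 to 17). No gene passed in any of the 7 comparisons (0% each), nor in the 11 libraries with at least 20 (4417 genes tested). There were 61 genes at an unadjusted p under 0.05 for tau in Ch25h+/+, 91 for tau in Ch25h-/-, 85 for Ch25h loss in Tau-, 65 in Tau+, 63 for tau over both, 45 for loss over both and 108 for the interaction. DESeq2 was not run on this subset. The genes below had the smallest unadjusted p-values and did not pass. In the 4 comparisons within a genotype or tau state, 44 to 58 of the 1747 genes tested did not overlap between groups (2.52 to 3.32%). A lack of overlap below is to be read against that share.

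Hdac9, a class II histone deacetylase, was lowest in Ch25h+/+ Tau-, at 547, 268, 226 and 475 CPM. It was at 1695, 672, 867 and 1236 in Ch25h+/+ Tau+, at 1779, 697, 1600 and 689 in Ch25h-/- Tau-, and at 631, 1018, 500 and 920 in Ch25h-/- Tau+. Every library of Ch25h+/+ Tau+ and of Ch25h-/- Tau- lay above every Ch25h+/+ Tau- library. The log2 difference for tau in Ch25h+/+ was 1.59 ± 0.39 (SE, edgeR adjusted p = 0.75), for Ch25h loss in Tau- 1.73 ± 0.40 (adjusted p = 0.23) and for the interaction -2.33 ± 0.54 (adjusted p = 0.37). The transcription factor gene Sox13 had the same order, with means of 47.7 ± 35.3 CPM in Tau- and 198 ± 88.1 in Tau+ with Ch25h, and 317 ± 68.9 in Tau- and 175 ± 81.4 in Tau+ without it (SD, n = 4). Its log2 difference for Ch25h loss in Tau- was 2.31 ± 0.55 (edgeR adjusted p = 0.23).

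In Ch25h-/- the largest tau differences by unadjusted p were in Arap2 and Lef1. Arap2, a regulator of small GTPases, was at 123, 174, 78.0 and 45.9 CPM in Ch25h-/- Tau- and at 399, 485, 269 and 487 in Ch25h-/- Tau+, with no overlap (log2 difference 1.99 ± 0.48, edgeR adjusted p = 0.56). Lef1 was at 1150, 1133, 702 and 1079 in Ch25h-/- Tau- and at 1229, 2181, 2230 and 3354 in Ch25h-/- Tau+, again with no overlap (1.08 ± 0.31, edgeR adjusted p = 0.82). In Ch25h+/+ these genes overlapped between Tau- and Tau+. The Arap2 levels in Ch25h-/- Tau- rest on few UMIs, from libraries of 11478 to 65207 UMIs in these nuclei. For Lef1 the groups parted at 1150 against 1229 CPM. Cluster 4 made up a mean 38.8% ± 30.2 of the endothelial-like nuclei in Ch25h-/- Tau- and 22.5% ± 16.4 in Ch25h-/- Tau+ (SD, n = 4). The part of that makeup in the Arap2 and Lef1 values was not tested.

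Cldn5 illustrates the spread. It was at 911, 837, 354 and 864 CPM in Ch25h+/+ Tau- and at 2269, 1343, 1057 and 1448 in Ch25h+/+ Tau+, with every Tau+ library higher. In Ch25h-/- it was at 1656, 610, 1717 and 1423 in Tau- and at 947, 1454, 1461 and 974 in Tau+, which overlapped. Flt1, another of the rule's genes, had means between 4051 and 6250 CPM in the 4 groups, with overlapping libraries. Cldn5 and Flt1 chose the nuclei, so their levels are a description.

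For Ch25h loss in Tau+ the smallest unadjusted p-values in the endothelial-like nuclei included those of Sat1, Edn1 and Vcam1, all below 0 on the log2 scale. Edn1, which encodes the vasoconstrictor endothelin 1, was at 434, 294, 416 and 389 CPM in Ch25h+/+ Tau+ and at 49.8, 291, 38.5 and 108 in Ch25h-/- Tau+, without overlap (-1.87 ± 0.51, edgeR adjusted p = 0.93). Vcam1, an adhesion molecule for leukocytes, was at 686, 630, 312 and 459 and at 33.2, 194, 76.9 and 54.1 (-2.75 ± 0.90, edgeR adjusted p = 1). Sat1, which acetylates polyamines, had means of 470 ± 352 and 86.0 ± 26.7 (SD, n = 4) with a log2 difference of -2.23 ± 0.57 (edgeR adjusted p = 0.93). None of the 3 passed. The Ch25h-/- Tau+ libraries held 60220, 20637, 26010 and 18484 UMIs in these nuclei, so their low values rest on few UMIs. The groups parted for Edn1 at 294 against 291 CPM. Edn1 had 115 of its UMIs in cluster 4 and 40 in cluster 3, and Vcam1 180 and 60, and cluster 4 held 51 nuclei in Ch25h+/+ Tau+ and 21 in Ch25h-/- Tau+. The part of that difference in these values was not tested.

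No arterial gene passed, and the summed arterial list overlapped between groups, at 228 to 3528 CPM in Ch25h+/+ Tau-, 1105 to 11920 in Ch25h+/+ Tau+, 784 to 7300 in Ch25h-/- Tau- and 154 to 2277 in Ch25h-/- Tau+. Cluster 4 had 25 nuclei in Ch25h+/+ Tau-, 51 in Ch25h+/+ Tau+, 43 in Ch25h-/- Tau- (24 of them in replicate 1) and 21 in Ch25h-/- Tau+. Mgp shows how uneven the libraries were, at 137, 167, 2497 and 216 CPM in Ch25h+/+ Tau-, where replicate 3 also held 20 of the 25 cluster 4 nuclei. Its values were 9287, 322, 1820 and 2472 in Ch25h+/+ Tau+. The part of the nuclei's makeup in these values was not tested.

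Other lists were described by their medians and summed levels. For tau in Ch25h+/+ the junction genes had a median log2 difference of 0.14 (15 tested), the transporters -0.21 (19 tested) and the Wnt and barrier genes 0.23 (8 tested). Only 5 interferon-stimulated genes passed the filter on low counts, with medians of -0.43 for tau in Ch25h+/+ and 0.61 in Ch25h-/-. Summed over the list, the interferon-stimulated genes were at 2423 to 3551 CPM (median 3008) in Ch25h-/- Tau- and at 3603 to 4729 (median 4531) in Ch25h-/- Tau+, without overlap. With Ch25h they were at 2981 to 3335 in Tau- and 2704 to 3712 in Tau+, which overlapped. The junction list lay higher in every Ch25h+/+ Tau+ library (7906 to 8601 CPM) than in Ch25h+/+ Tau- (5768 to 7604), but without Cldn5, which the rule used, these groups overlapped (6331 to 7089 and 5413 to 6763). The adhesion and inflammation list lay lower in every Ch25h-/- Tau+ library (1190 to 1884) than in Ch25h+/+ Tau+ (1907 to 2785). These are the 3 separations among 19 pathway lists in 4 comparisons (3.95% of 76), against 2.52 to 3.32% of the 1747 genes tested, so nothing is read from them. No single gene of the lists passed. B2m was at 0 in 1 library of Ch25h+/+ Tau- and in 1 of Ch25h-/- Tau+, and Ch25h had 6 UMIs in these nuclei, all in Ch25h+/+ libraries.

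In clusters 1 and 2, tested in the 13 libraries with at least 20 such nuclei (10286 genes), 2 genes of chromosome 19 differed between the Ch25h genotypes. Cfap43, which encodes a protein of motile cilia, fell by 1.04 ± 0.20 on the log2 scale in Tau- (edgeR adjusted p = 0.047; 0.00972% of genes tested) and by 1.14 ± 0.18 in Tau+ (adjusted p = 0.0025; 0.00972%). Over both tau states it fell by 1.09 ± 0.13 (edgeR adjusted p = 6.4e-06; 0.0194% of genes tested). Its levels were 382, 303 and 398 CPM in Ch25h+/+ Tau-, 320, 455, 441 and 377 in Ch25h+/+ Tau+, 166, 146 and 205 in Ch25h-/- Tau- and 157, 190 and 207 in Ch25h-/- Tau+. Every Ch25h-/- library lay below every Ch25h+/+ library.

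Arl3, a small GTPase that carries proteins into cilia, was higher without Ch25h by 1.33 ± 0.18 on the log2 scale over both tau states (edgeR adjusted p = 0.00016), and within each state it did not pass (adjusted p = 0.076 in Tau- and 0.060 in Tau+). It ranged from 40.0 to 156 CPM in Ch25h+/+ and from 181 to 306 in Ch25h-/-, without overlap. Cfap43 (chromosome 19, 47736857 to 47919287) lies 13.3 Mb and Arl3 (46531096 to 46573198) 12.1 Mb from Ch25h (34473778 to 34475164) on GRCm38. Loss of Ch25h and other DNA of that chromosome inherited with the deleted allele cannot be told apart in this design. No gene passed in clusters 1 and 2 for tau in Ch25h+/+, tau in Ch25h-/-, tau over both or the interaction (0% each).

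The tau effect in the selected nuclei was set against that in microglia, chosen by the same kind of rule from microglia markers that include Csf1r, Cx3cr1, P2ry12 and Tmem119 (8819 nuclei), with the library as a block. Of 15945 genes tested 5 differed (0.0314%). H2-Q7, an MHC class I gene with near-identical copies whose counts are therefore uncertain, showed the difference with the smallest adjusted p: selected nuclei minus microglia was -5.74 ± 0.86 on the log2 scale (SE, edgeR adjusted p = 0.0094). Its level in microglia was 0 to 0.637 CPM in the 8 Tau- libraries and 1.84 to 25.8 in the 8 Tau+ libraries. In the selected nuclei it was 1.82 to 53.7 and 0 to 29.1, and 93.2% of its UMIs there came from clusters 3 and 4. The endothelial-like nuclei thus carried it in both tau states. They gave 5.32 to 31.1% of a library's summed UMIs, and the difference from microglia was not tested in them alone. The part of that makeup in the H2-Q7 difference was not tested.

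Axl, a receptor for apoptotic cells, differed by -2.99 ± 0.54 on the log2 scale (edgeR adjusted p = 0.025), and Dock2 by 4.45 ± 0.77 in the other direction (adjusted p = 0.025). Rgs20 and Tns1 differed by -1.47 ± 0.28 and -1.21 ± 0.23 (edgeR adjusted p = 0.0498 for both). Without cluster 9, which held 80.7% of the Dock2 UMIs, H2-Q7 and Axl still passed (2 genes). Dock2 then differed by 3.04 ± 1.28 (edgeR adjusted p = 0.60), and Rgs20 and Tns1 had adjusted p-values of 0.0593. Axl had 0 UMIs in the endothelial-like nuclei of all 16 libraries. Without Ch25h+/+ Tau- replicate 3 none of these differences passed (0 genes), and leaving out other libraries gave 1 to 17. In that library the selected nuclei had a median of 0.564% mitochondrial UMIs, against 0.0421 to 0.202% in the other 15, and the part of this in the differences was not tested. Against mural cells (528 nuclei, chosen from Pdgfrb, Rgs5, Abcc9, Kcnj8 and Notch3), tested in 13 libraries and 9159 genes, no gene differed (0%) in edgeR or DESeq2, and 291 had an unadjusted p under 0.05.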

How the data were processed

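The deposited files hold UMI counts per gene and barcode, raw and with empty droplets included; their headers give Cell Ranger 4. The submitters' processing notes name Cell Ranger 3.1.0, Seurat and mm10. Whether intronic reads were counted is not given in the sources used here. Libraries were made from nuclei with a 10x Genomics 3' kit, per the labels, and held 51270831 to 84870650 UMIs (sum over all barcodes), with 8130 to 11654 nuclei of a median of 3846 to 6508 UMIs. Within groups no library was a copy of another: chi-square per degree of freedom was 1.98 to 7.03 over the 24 pairs, in the selected nuclei. Pairs from different groups were not checked.

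Counts of the selected nuclei were summed per library and tested with edgeR 4.0.16 (TMM scaling, filterByExpr with a minimum count of 5 and a minimum total of 15, robust quasi-likelihood test, 1 mean per group) at an adjusted p of 0.05. Libraries with under 20 nuclei were left out in clusters 1 and 2 and in the test against mural cells, and kept in the other subsets, clusters 3 and 4 included, unless no nucleus was left. Clustering used scanpy 1.11.5 and leidenalg 0.10.2 (resolution 0.5, 15 neighbours, 30 components, 2000 variable genes, counts scaled to 10000 and log-transformed). Levels (CPM) are counts scaled to the summed UMIs of the nuclei named, and levels of different genes are not per length. Coordinates are of GENCODE M21 (GRCm38), which holds 32158 of the 32285 gene identifiers. The test was run on simulated data before use.

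The members, the gene lists and the tests were chosen with earlier results of these data known, so that no list is independent evidence. Named genes were, per comparison, up to 10 called genes in each direction averaging 5 or more UMIs in a library of the higher group, every called list member, where fewer than 5 were called the 5 with the smallest unadjusted p in that direction, a short fixed list, and the 30 leading genes. List members were also named as examples. Alternatives on the test, the filters, the doublets, the marker threshold and the split of replicates 1 and 2 from 3 and 4, a split known from earlier results and not from the labels, were planned. Those on Mecom, on single clusters, on libraries with under 20 endothelial-like nuclei and on the 3 thinnest libraries were chosen after seeing the data, as were the tests in clusters 1 and 2 and in clusters 3 and 4. Some genes of the lists and gates are not reported here by name.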

Additional observations from a re-analysis of the deposited data

Results flagged for a closer look

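Of 104 sets of 4 library values checked, 13 had 1 library far from the other 3. Chance alone flags about 1 group in 20. As a percent of all nuclei, the endothelial-like nuclei stood at 0.470 in 1 Ch25h+/+ Tau- library, above the rest, and at 0.194 in 1 Ch25h+/+ Tau+ library, below the rest. In CPM of all selected nuclei, 1 library stood apart for Dock8 (1.82) and Apbb1ip (1.82) in Ch25h+/+ Tau-, for Cfap43 (227) in Ch25h+/+ Tau+, for Arl3 (126) in Ch25h-/- Tau- and for Dock8 (135) in Ch25h-/- Tau+. The values of 1.82 are 1 UMI each beside 3 libraries at 0, where any single UMI stands apart, so they tell nothing of the level. In CPM of the endothelial-like nuclei, 1 library stood apart for Cldn5 (354), Vcam1 (677) and Sat1 (774) in Ch25h+/+ Tau-. The same held for Flt1 (3292), Mecom (4541) and Igf1r (1401) in Ch25h+/+ Tau+.

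The tau effect differed between the selected nuclei and the microglia for 5 genes in the edgeR test of the difference (adjusted p 0.0094 to 0.0498). As selected nuclei minus microglia on the log2 scale, the differences were -5.74 for H2-Q7, 4.45 for Dock2, -2.99 for Axl, -1.47 for Rgs20 and -1.21 for Tns1. Without cluster 9, which held 80.7% of the Dock2 UMIs, H2-Q7 and Axl passed and Dock2 did not (edgeR adjusted p = 0.60).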

How the results depend on the processing

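No paired analysis was possible because the replicate numbers follow the order of deposition and the labels pair no libraries. For the tau effect over both genotypes (3 genes called), DESeq2 called 22 genes (10 higher, 12 lower), no filter on low counts 21, replicates 1 and 2 alone 27, markers without Mecom 6 and the split as a term 1. No gene was called (0) at a minimum count of 10, without doublets, at 5 marker UMIs, in replicates 3 and 4 alone, in clusters 3 and 4 with or without doublets or in the libraries with at least 20 such nuclei, in clusters 1 and 2, without cluster 9, or without the 3 thinnest libraries. For tau in Ch25h+/+ (0 called), DESeq2 called 27 of 1138 genes with an adjusted p, no filter 7, replicates 3 and 4 alone 2 and the fit without the thinnest libraries 1. For tau in Ch25h-/- (0), no filter called 2 and replicates 1 and 2 alone 4. For Ch25h loss, clusters 1 and 2 alone called 1 gene in Tau-, 1 in Tau+ and 2 over both. Without the thinnest libraries 1 was called in Tau+ and 2 over both, where DESeq2 called 1, no filter 1 and 5 marker UMIs 2. The difference from microglia (5) became 17 with DESeq2, 3 at a minimum count of 10, 2 without cluster 9 and 137 without a filter, and that from mural cells (0) became 5 without a filter. The fit of clusters 3 and 4 without doublets had 15 libraries, since none of those nuclei was left in Ch25h+/+ Tau- replicate 4. The cause was not tested.

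Leaving out 1 library in turn gave 0 to 8 genes for tau over both, with 8 without Ch25h+/+ Tau+ replicate 3, 1 without Ch25h-/- Tau- replicate 4 and 0 without any of Ch25h+/+ Tau+ replicates 1 and 2, Ch25h+/+ Tau- replicates 2 and 3, Ch25h-/- Tau+ replicate 1 and Ch25h-/- Tau- replicates 1, 2 and 3. It gave 0 to 1 for tau in Ch25h+/+ and for loss over both, 0 to 0 for tau in Ch25h-/-, loss in Tau-, loss in Tau+ and the interaction, 0 to 17 against microglia (0 without Ch25h+/+ Tau- replicate 3) and 0 to 1 against mural cells. In percentage points, the share effects ranged from 0.574 to 0.883 for tau in Ch25h+/+, -0.553 to -0.0147 for tau in Ch25h-/-, -0.0891 to 0.449 for loss in Tau-, -1.08 to -0.684 for loss in Tau+, 0.1004 to 0.370 for tau over both and -0.473 to -0.204 for loss over both. The loss effect in Tau- was -0.0307 with markers without Mecom. Permuting within replicates 1 and 2 and within 3 and 4 gave p = 0.0556 for tau in Ch25h+/+ (exact permutation). The endothelial-like nuclei numbered 9 to 45 in a library, and 1747 genes had enough counts there to be tested.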
